A study of Rattus norvegicus with 5 samples.

Results

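The insulin signalling genes examined here are the 10 genes Insr, Irs1, Irs2, Akt1, Akt2, Pik3r1, Pde3b, Foxo1, Tbc1d4 and Trib3, out of 14217 genes named on the array. Every probe set annotated with exactly 1 symbol that is one of these was taken. A probe set is a group of short probes read together as 1 value, for 1 transcript or for several related ones. The rule found 21 probe sets among the 31099 on the array, with 6 genes measured by several probe sets and 4 by 1. The tissue was mesenteric fat from around the pancreas of male Wistar rats that were 7 weeks old when the diets began. Cafeteria food, in which fat supplied 66% of the calories, was given for 30 days to the rats behind 2 samples. Standard chow, in which fat supplied 8%, was given for 30 days to those behind the other 3. The labels name no transgene or drug for either group. The labels call the samples independent and do not say whether a sample was 1 rat or a pool, so a p-value measures the spread between these samples.

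Insulin binds a receptor tyrosine kinase at the cell surface. The receptor phosphorylates docking proteins of the IRS family, these recruit phosphatidylinositol 3-kinase, and its lipid product brings AKT kinases to the membrane. In fat cells AKT releases glucose transporter vesicles through TBC1D4, activates the phosphodiesterase PDE3B, which restrains lipolysis, and keeps the transcription factor FOXO1 out of the nucleus. Most of these steps run through phosphorylation, and the arrays measured transcript levels only.

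All values are log2 expression levels as deposited, in which a difference of 1 is a doubling, and differences are cafeteria minus standard. Of 21729 probe sets whose mean lay above a filter on dim signals, 0 passed an adjusted p of 0.05 in limma (0.0% of those tested), with 2754 at an unadjusted p under 0.05 (12.7%). A linear model without moderated variance also called 0, with 1874 at an unadjusted p under 0.05. Fat cell markers were bright on every array, with a mean over 15 of 16 markers of 11.62 and 11.82 on the cafeteria arrays and of 11.21, 11.44 and 11.42 on the standard arrays. Standard replicate 1 held many transcripts of acinar cells, which make digestive enzymes in the pancreas. The mean over 29 of 33 acinar markers was 7.11 there, 4.54 and 4.495 on the cafeteria arrays, and 4.38 and 4.40 on the other standard arrays. Of 29 acinar genes with a probe set, 18 passed the filter, some only through that array, and the amylase gene Amy2a3 read 9.68 there and at most 3.12 elsewhere. Most marker transcripts of islet cells, the source of insulin itself, were near the dim end of the scale. The insulin gene Ins2 read 3.89 and 3.87 on the cafeteria arrays and 3.70, 3.98 and 3.79 on the standard arrays, below the filter of 4.28. Only 2 of 11 islet markers passed it, among them the insulin gene Ins1, at 5.11 to 5.61.

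None of the insulin signalling genes passed the test between the diets. Of the 21 probe sets 20 passed the filter, and 0 of these 20 were called, the smallest adjusted p being 0.344 (limma). At an unadjusted p under 0.05 there was 1 probe set, that of Pde3b, where 12.7% of all filtered probe sets lay under that value, 6.05% higher and 6.62% lower in cafeteria samples. The arrays of the diets did not overlap for 4 of the 20, with 2 higher and 2 lower in cafeteria samples, and for 27.4% of all filtered probe sets. With only the brightest probe set of each gene, 4 of 10 did not overlap, against 29.4% of all genes, so these small counts lie near the background. The mean was higher in cafeteria samples for 8 probe sets and lower for 12, where 48.7% of all filtered probe sets were higher, and the median difference was -0.04, against -0.0036 over all filtered probe sets. The median size of a difference, sign aside, was 0.115 for the members and 0.120 for all.

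**Figure D1:**
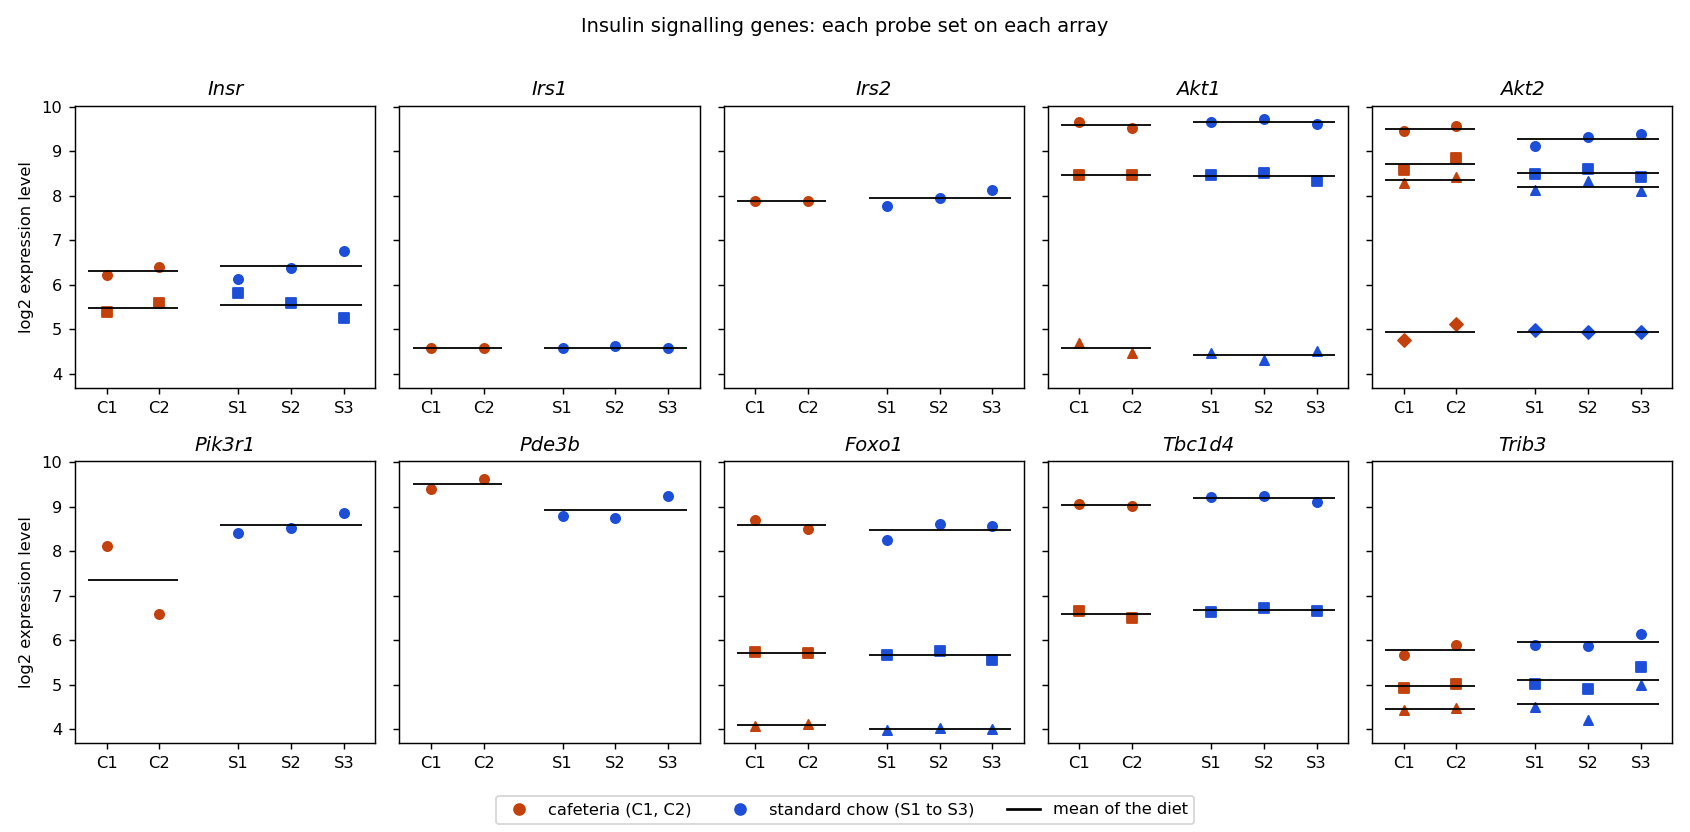
Log2 expression level (vertical axis) of each probe set of the 10 genes on each array (horizontal axis, cafeteria arrays C1 and C2 left of standard arrays S1 to S3). Each marker shape is 1 probe set of the gene and each bar the mean of a diet. Pik3r1 on C2, at 6.59, lies far from its value of 8.13 on C1, and both Pde3b values on the cafeteria arrays lie above its 3 values on the standard arrays.

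The insulin receptor gene Insr was measured by a pair of probe sets that ranked the arrays in different orders. The brighter one read 6.23 and 6.39 on the cafeteria arrays and 6.12, 6.38 and 6.77 on the standard arrays, so the diets overlapped. The dimmer one read 5.38 and 5.59 on the cafeteria arrays and 5.82, 5.59 and 5.25 on the standard arrays. Standard replicate 3 was thus the highest array on the first and the lowest on the second, and standard replicate 1 the lowest on the first and the highest on the second. The differences were -0.11 ± 0.21 (SE) and -0.07 ± 0.19, and their 95% intervals, -0.66 to 0.44 and -0.57 to 0.43, leave room for a change of either sign. Among all filtered probe sets, 5.33% had a range over the standard arrays as wide as that of the brighter Insr probe set, 0.64.

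The Insr promoter is shown because Insr is a known target of FoxO factors in flies and mammalian cells, which links the start of this pathway to its end. Promoter windows of 300 bases, from 250 before to 50 after the start site given by RefSeq, were found for 8 of the 10 genes (build GRCr8). Each was searched on both strands for 5 motifs: the FoxO elements GTAAACA and CAAAACAA, the ATF4 and CHOP element as TGATGCAAT and in its shorter form TTGCATCA, and the E-box CACGTG. Every TGATGCAAT also holds a match to TTGCATCA. The only match was GTAAACA in the Insr window, read as TGTTTAC in the direction of the gene and starting 100 bases before the start site. This motif occurred in 3.78% of 33469 windows, CAAAACAA in 2.23%, TGATGCAAT in 0.188%, TTGCATCA in 0.795% and CACGTG in 6.42%. The window lies at chr12:6128754-6129053 on the minus strand, and capitals mark the motif.
Insr: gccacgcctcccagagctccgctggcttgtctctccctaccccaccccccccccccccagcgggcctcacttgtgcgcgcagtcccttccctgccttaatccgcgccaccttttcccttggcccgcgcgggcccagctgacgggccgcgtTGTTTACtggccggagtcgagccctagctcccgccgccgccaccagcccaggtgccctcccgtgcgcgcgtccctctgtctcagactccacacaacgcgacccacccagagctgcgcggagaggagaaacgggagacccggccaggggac

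Irs1 and Irs2, each with 1 probe set, encode docking proteins of the receptor. Irs2 read 7.89 on both cafeteria arrays and 7.78, 7.95 and 8.13 on the standard arrays, a difference of -0.06 ± 0.12 with a 95% interval of -0.37 to 0.25. The cafeteria values lay inside the standard range. Irs1 read 4.58 on both cafeteria arrays and 4.58, 4.62 and 4.58 on the standard arrays, a difference of -0.01 ± 0.05. The Irs1 value was identical on 4 of the 5 arrays and close to the filter, so this probe set gives little information on the gene. Of the 21 probe sets, 8 held the same value on 2 or more arrays, and for 3 of them both cafeteria arrays were identical. Such repeats were general on these arrays: between any 2 of them, 11.7% to 14.7% of all probe sets were identical.

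Pik3r1, which encodes the p85 alpha regulatory subunit of phosphatidylinositol 3-kinase and its shorter forms, had the largest difference of the 10 genes. It read 8.13 and 6.59 on the cafeteria arrays and 8.41, 8.54 and 8.85 on the standard arrays. The diets did not overlap, but cafeteria replicate 2 lay 1.53 below cafeteria replicate 1, or 2.90-fold. Only 0.391% of all filtered probe sets had a gap between the cafeteria arrays at least as wide. The means were 7.36 ± 1.08 in cafeteria samples (SD, n = 2) and 8.60 ± 0.23 in standard samples (SD, n = 3). Pik3r1 thus differed by -1.24 ± 0.49 (SE), with a 95% interval of -2.54 to 0.06, and was not called (limma, adjusted p = 0.408). By exact two-sided permutation p was 0.1, which is as small as the 10 splits of 5 arrays can give. The size rested on 1 array: leaving out cafeteria replicate 2 gave -0.47 and leaving out cafeteria replicate 1 gave -2.01, with adjusted p of 0.453 and 0.159 in limma. Each of these fits has 1 cafeteria array, which is assumed to vary like the standard arrays, so neither p holds the spread between cafeteria samples. The gene has a single probe set here, so no second measurement of it could be set beside this one.

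Cafeteria replicate 2 was also the array with the lowest marker means of T cells, B cells, mast cells, macrophages and mesothelium. The mean over all 10 T cell markers, of which 9 passed the filter, was 5.46 and 4.99 on the cafeteria arrays and 5.90, 5.79 and 5.45 on the standard arrays. The mean over 4 of 7 B cell markers was 5.37 and 4.52 on the cafeteria arrays and 5.28, 5.51 and 5.11 on the standard arrays. For all 9 mast cell markers the means were 7.37 and 6.56 on the cafeteria arrays and 8.00, 7.54 and 7.24 on the standard arrays. The mean over 10 macrophage markers was 9.69 and 9.35 on the cafeteria arrays and 9.91, 9.85 and 9.50 on the standard arrays. That over 6 of 7 mesothelial markers was 9.60 and 8.83 on the cafeteria arrays and 9.27, 9.20 and 9.05 on the standard arrays. These lists thus moved with Pik3r1 on that array, but not over the standard arrays. There Pik3r1 was highest on standard replicate 3, at 8.85, where each of these lists had its lowest standard mean. On cafeteria replicate 1 the mesothelial mean was the highest of all arrays, while Pik3r1 lay below every standard array. The B cell gene Ms4a1, picked after its values were seen, read 3.91 on cafeteria replicate 2 and 5.35 to 6.399 on the other 4 arrays. It had the widest range of the B cell markers. Cd79b read 4.78 on cafeteria replicate 2 and 5.35 to 5.81 on the other 4. Cd22 read 5.94 on every array, and Blk was below the filter. In a whole tissue, fewer cells of a type and less RNA per cell cannot be told apart, and the part of these cells in the Pik3r1 value was not tested.

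The Pik3r1 promoter window is shown because the gene had the largest difference. It lies at chr2:34697611-34697910 on the minus strand of GRCr8 and is 75.3% G and C, more than the median window at 51.7%, with 31 CG pairs. None of the 5 motifs occurs in it, so no base is in capitals. It is the window of 1 RefSeq start site, and the shorter forms of the subunit are made from other starts.
Pik3r1: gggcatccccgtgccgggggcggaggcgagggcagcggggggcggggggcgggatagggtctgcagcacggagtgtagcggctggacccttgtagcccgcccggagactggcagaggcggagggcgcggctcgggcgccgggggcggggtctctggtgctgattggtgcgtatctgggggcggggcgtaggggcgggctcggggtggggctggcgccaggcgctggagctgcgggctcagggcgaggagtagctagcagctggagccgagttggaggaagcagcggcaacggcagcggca

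The kinase AKT is encoded by Akt1 and Akt2, of which Akt2 is the form most closely tied to glucose uptake in fat and muscle. The 3 brighter Akt2 probe sets all gave a higher mean in cafeteria samples, and cafeteria replicate 2 was the highest array on each. The brightest read 9.45 and 9.57 on the cafeteria arrays and 9.12, 9.33 and 9.39 on the standard arrays, with no overlap. The next read 8.58 and 8.84 on the cafeteria arrays and 8.48, 8.61 and 8.43 on the standard arrays, and the third read 8.30 and 8.43 on the cafeteria arrays and 8.14, 8.34 and 8.12 on the standard arrays. On both of these standard replicate 2 lay above cafeteria replicate 1. The differences were 0.23 ± 0.10, 0.20 ± 0.11 and 0.17 ± 0.10, and for the brightest the fold was 1.17 with a 95% interval of 0.97 to 1.42 (limma, adjusted p = 0.456). Without cafeteria replicate 2 the next 2 differed by 0.07 and 0.10, and without standard replicate 1 the brightest was 0.15. The 3 probe sets report on the same RNA samples and are not 3 replicates. The remaining Akt2 probe set, a dim one at a mean of 4.94 in cafeteria and 4.95 in standard samples gave -0.01 ± 0.12.

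Akt1 was likewise not called. Its brightest probe set read 9.65 and 9.53 on the cafeteria arrays and 9.67, 9.73 and 9.62 on the standard arrays, a difference of -0.08 ± 0.07 with a 95% interval of -0.26 to 0.10, or a fold of 0.83 to 1.07. The second read 8.47 on both cafeteria arrays and 8.47, 8.50 and 8.34 on the standard arrays, a difference of 0.03 ± 0.07. A dim one gave 0.16 ± 0.11, or 0.04 without cafeteria replicate 1, at means of 4.58 in cafeteria and 4.43 in standard samples. The arrays of the diets overlapped on all 3. Whether the differences of Akt1 and Akt2 are unlike was not tested.

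Pde3b, the phosphodiesterase through which insulin lowers cyclic AMP and so restrains lipolysis, was the only one of the 10 genes with an unadjusted p under 0.05. It read 9.41 and 9.62 on the cafeteria arrays and 8.80, 8.75 and 9.24 on the standard arrays. The diets did not overlap, although standard replicate 3 came close to the lower cafeteria array. The means were 9.52 ± 0.15 in cafeteria samples (SD, n = 2) and 8.93 ± 0.27 in standard samples (SD, n = 3). Pde3b differed by 0.58 ± 0.18 (SE), a 1.497-fold higher level with a 95% interval of 1.07 to 2.10, and it was not called over all probe sets (limma, unadjusted p = 0.0285, adjusted p = 0.344). By exact two-sided permutation p was 0.2. Leaving out 1 array at a time gave differences between 0.48 and 0.74, but the unadjusted p in limma stayed under 0.05 only without standard replicate 3 (0.00367). It was 0.0837 without cafeteria replicate 1, 0.173 without cafeteria replicate 2, 0.0901 without standard replicate 1 and 0.0835 without standard replicate 2. With the acinar level of each array as a covariate it was 0.0802, and without moderated variance 0.0751. The fat cell marker mean, given above, was likewise higher on both cafeteria arrays than on any standard array and highest on cafeteria replicate 2. Among the standard arrays it was highest on standard replicate 2, where Pde3b was lowest. Of its measured markers only Cfd and Slc2a4 had a lower mean in cafeteria samples. Cfd was lower on both cafeteria arrays than on any standard array. The part of fat cells in the Pde3b value was not tested.

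The genes whose profile over the 5 arrays lay closest to that of Pde3b were Eepd1, Mdfic and the cell surface proteoglycan gene Sdc1, at Euclidean distances of 0.12, 0.15 and 0.17 after centring each on its own mean. Eepd1 read 9.87 and 10.09 on the cafeteria arrays and 9.14, 9.11 and 9.64 on the standard arrays, again with standard replicate 3 nearest to the cafeteria values. With 5 arrays and so many genes such likeness is a description only.

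**Figure D2:**
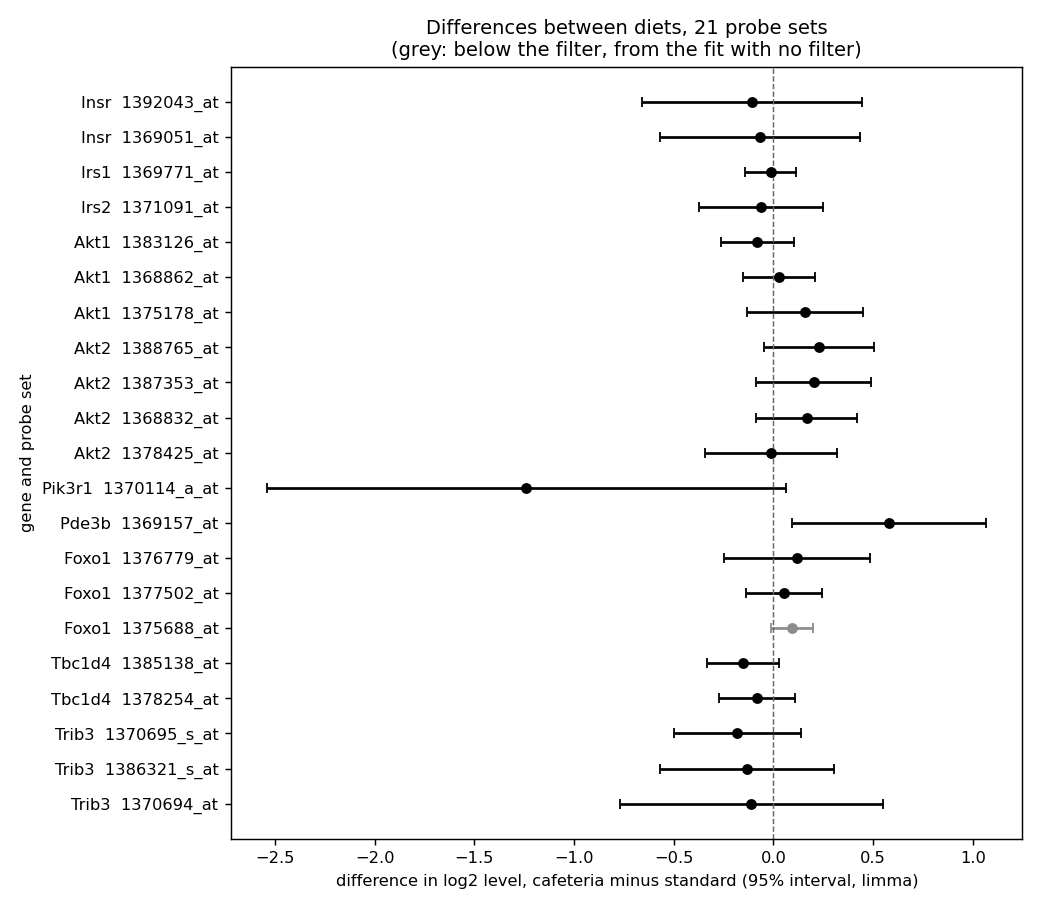
Difference in log2 level, cafeteria minus standard (horizontal axis), with its 95% interval from limma, for the 21 probe sets (vertical axis). The dashed line marks no difference, and the grey point is the Foxo1 probe set that failed the filter. The interval of Pde3b, from 0.10 to 1.07, is the only one among the filtered probe sets that does not cross 0, and that of Pik3r1, from -2.54 to 0.06, is the widest.

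Foxo1 encodes the transcription factor that AKT holds in the cytoplasm. Its brightest probe set read 8.69 and 8.51 on the cafeteria arrays and 8.27, 8.63 and 8.56 on the standard arrays, a difference of 0.12 ± 0.14. Standard replicate 1, the array with acinar transcripts, was the lowest, and without it the difference was 0.01. Dropping cafeteria replicate 1 gave 0.03 and dropping cafeteria replicate 2 gave 0.21. A second probe set gave 0.05 ± 0.07 at means of 5.72 in cafeteria and 5.66 in standard samples. The third failed the filter, at 4.07 and 4.11 on the cafeteria arrays and 3.97, 4.02 and 3.997 on the standard arrays. Its arrays did not overlap, at a level too dim to carry a statement.

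Tbc1d4 encodes AS160, the AKT substrate that holds glucose transporter vesicles inside the cell. Its brighter probe set read 9.06 and 9.02 on the cafeteria arrays and 9.22, 9.25 and 9.10 on the standard arrays, so both cafeteria arrays lay just below all standard arrays. The difference was -0.15 ± 0.07, a fold of 0.90 with a 95% interval of 0.79 to 1.02 (limma, adjusted p = 0.453). The dimmer probe set read 6.67 and 6.51 on the cafeteria arrays and 6.63, 6.72 and 6.67 on the standard arrays, where the diets overlapped, and differed by -0.08 ± 0.07.

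Trib3 encodes a pseudokinase that binds AKT and is induced by the stress factors ATF4 and CHOP. All of its 3 probe sets were highest on standard replicate 3, and the lower 2 were dim. The brightest read 5.67 and 5.90 on the cafeteria arrays and 5.90, 5.87 and 6.13 on the standard arrays, a difference of -0.18 ± 0.12, or -0.07 without cafeteria replicate 1. The second gave 4.94 and 5.02 on the cafeteria arrays and 5.02, 4.91 and 5.40 on the standard arrays, and the third 4.44 and 4.48 on the cafeteria arrays and 4.51, 4.20 and 4.997 on the standard arrays. The differences of these were -0.13 ± 0.16 and -0.11 ± 0.25, and without standard replicate 3 they turned to 0.01 and 0.10. Only 3.08% of all filtered probe sets had a range over the standard arrays as wide as that of the third, 0.79. Standard replicate 3 also had the highest mean over the list of smooth muscle and pericyte markers. The mean over 10 markers was 9.57 there, 8.06 and 7.95 on the cafeteria arrays, and 8.54 and 7.76 on the other standard arrays. Each marker on that list was highest there except Rgs5, highest on standard replicate 1, and Cspg4, highest on cafeteria replicate 2. The endothelial mean was only slightly the highest there, at 9.03, against 8.98 and 8.92 on standard replicates 1 and 2. On the cafeteria arrays it was 8.28 and 8.77. The striated muscle mean was 4.96 there and 4.43 to 4.66 on the other arrays, but only 4 of its 11 markers passed the filter. Myh1, its brightest marker, read 10.44 there and 10.79 on cafeteria replicate 2. The part of such cells in the Trib3 values was not tested.

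The rest of the pathway was read from a list of 134 other genes in 11 roles, of which 122 had a probe set and 117 passed the filter, with the brightest probe set taken for each gene. None of the 117 was called (limma, smallest adjusted p = 0.195), against 0.0% of all 11509 genes. At an unadjusted p under 0.05 there were 13 higher and 7 lower in cafeteria samples, where 6.73% of all genes were higher and 6.88% lower at that value. The mean was higher for 59 and lower for 58 of them, where 49.2% of all genes were higher. The median difference was 0.00043 for the list and -0.0027 for all genes. Each role is described below by its 2 genes of smallest p, with Slc2a4 and the measured Pde4 genes beside them. No role as a whole was tested.

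The smallest p of the list was that of Grb14, an adaptor that binds the active insulin receptor and inhibits it. Grb14 read 8.98 and 9.16 on the cafeteria arrays and 7.94, 7.76 and 8.09 on the standard arrays, and the diets were well apart. The difference was 1.14 ± 0.13 (SE), a 2.20-fold higher level, at an unadjusted p of 0.000458 and an adjusted p of 0.195 in limma. Over the alternative settings the difference stayed between 1.05 and 1.23 and the adjusted p between 0.135 and 0.523. In the same role Enpp1, an ectoenzyme that can inhibit the insulin receptor, differed by 0.31 ± 0.11, and by 0.20 without cafeteria replicate 2. Of the 13 measured brakes on the pathway, 6 had a higher and 7 a lower mean in cafeteria samples.

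Among 15 adaptors, 4 had a higher and 11 a lower mean. Irs3 encodes another docking protein of the IRS family, found in rodent fat cells. Its values did not overlap, 8.49 and 8.76 on the cafeteria arrays and 7.84, 8.11 and 7.91 on the standard arrays. Its difference was 0.67 ± 0.13, a 1.59-fold higher level (limma, unadjusted p = 0.0044, adjusted p = 0.253). Cblb, a ubiquitin ligase, differed by -0.48 ± 0.12. Among 3 further receptors, the IGF1 receptor gene Igf1r differed by -0.29 ± 0.17 and the related receptor gene Insrr by 0.12 ± 0.09. Igf1r was at -0.12 without cafeteria replicate 2, -0.45 without cafeteria replicate 1 and -0.17 without standard replicate 3, and Insrr at 0.04 without standard replicate 2.

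In the role of cyclic AMP breakdown and lipolysis, where Pde3b acts, 5 of 7 genes had a higher mean in cafeteria samples, with a median difference of 0.18. Other phosphodiesterase genes were measured in this role, and whether their differences are unlike that of Pde3b was not tested. Pde4b differed by -0.41 ± 0.14, with no overlap of the diets, Pde4d by -0.08 ± 0.12 and Pde4a by 0.0041 ± 0.07. Pde4b and Pde4d each had 2 filtered probe sets, and the value given is that of the brighter one. Abhd15, whose protein binds and stabilises PDE3B in mouse fat cells, read 6.79 and 6.98 on the cafeteria arrays and 6.39, 6.35 and 6.51 on the standard arrays, a difference of 0.46 ± 0.09 (limma, adjusted p = 0.253). Prkar2b, the regulatory subunit of protein kinase A that predominates in fat, differed by 0.46 ± 0.11, and by 0.30 without cafeteria replicate 2. Both, like Pde3b and Irs3, were highest on cafeteria replicate 2, where the fat cell marker mean was also highest. Among the standard arrays that mean was highest on standard replicate 2. Irs3 and Prkar2b were highest there too, but Pde3b and Abhd15 were lowest there.

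**Figure D3:**
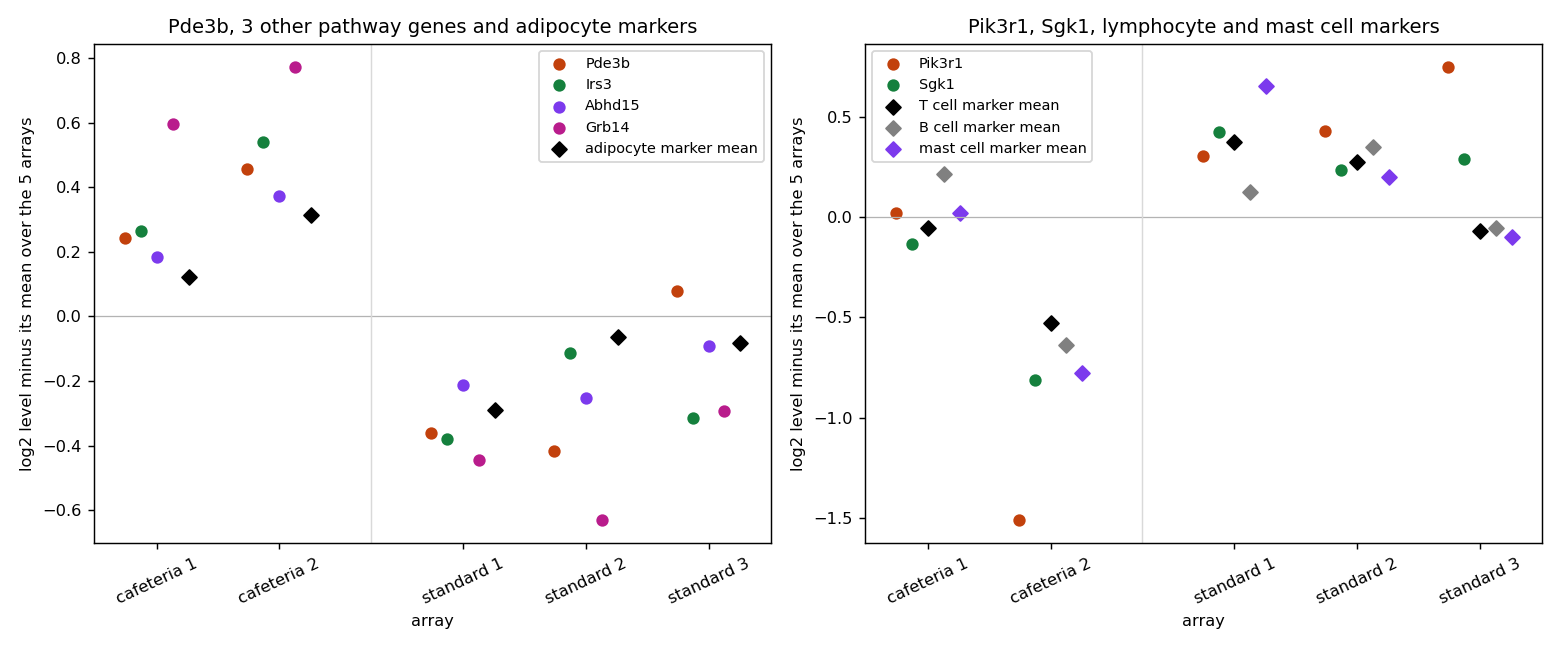
Log2 level minus its mean over the 5 arrays (vertical axis) for each array (horizontal axis), with single genes as circles and marker list means as diamonds. On the left Pde3b, Irs3, Abhd15, Grb14 and the adipocyte marker mean are all higher on the cafeteria arrays and highest on cafeteria replicate 2. Over the standard arrays the adipocyte mean and Irs3 are highest on standard replicate 2, where Pde3b, Abhd15 and Grb14 are lowest. On the right Pik3r1 and Sgk1 are lowest on cafeteria replicate 2, as are the T cell, B cell and mast cell marker means. Among the standard arrays Pik3r1 is highest on standard replicate 3, where these marker means are lowest.

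Of 7 kinases that act below phosphatidylinositol 3-kinase, 5 had a higher and 2 a lower mean. Sgk1, a relative of AKT, read 8.94 and 8.26 on the cafeteria arrays and 9.50, 9.31 and 9.36 on the standard arrays, a difference of -0.79 ± 0.22 (limma, adjusted p = 0.316). As with Pik3r1, cafeteria replicate 2 was far the lowest, and the difference was -0.45 without it and -1.12 without cafeteria replicate 1. Gsk3a, a kinase that AKT inhibits, differed by 0.25 ± 0.06. In the mTOR branch the mTORC2 subunit gene Rictor differed by -0.41 ± 0.15 and the mTOR inhibitor gene Deptor by 0.33 ± 0.11, and 10 of 14 genes had a higher mean. Rictor too was lowest on cafeteria replicate 2, and its difference was -0.21 without that array. Among 7 other subunits of phosphatidylinositol 3-kinases, Pik3c2a differed by 0.16 ± 0.09 and the catalytic subunit gene Pik3ca by -0.11 ± 0.10, which was -0.04 without standard replicate 3. That was the brightest of 6 Pik3ca probe sets, and the others lay between -0.20 and 0.17, with signs that disagreed.

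Glucose transport genes were divided, with 6 of 11 at a higher mean. The insulin-regulated transporter gene Slc2a4 read 8.97 and 9.44 on the cafeteria arrays and 9.02, 9.67 and 9.63 on the standard arrays on its brighter probe set, a difference of -0.24 ± 0.27, and the dimmer one gave -0.38 ± 0.19. Without cafeteria replicate 1 the brighter probe set differed by 0.0005. Stx4, a membrane protein at which the transporter vesicles fuse, differed by -0.31 ± 0.08, and Trarg1, a regulator of their traffic, by 0.36 ± 0.11.

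Among 15 FoxO factors and target genes, 7 had a higher and 8 a lower mean. The cell cycle inhibitor gene Cdkn1b differed by -0.27 ± 0.06 and the stress gene Gadd45a by 0.25 ± 0.06, both being known FoxO targets. Of the 19 stress genes that include ATF4 and CHOP themselves and genes induced with Trib3, 12 had a higher mean, none with an unadjusted p under 0.05. The CHOP gene Ddit3 differed by 0.28 ± 0.12 and Cebpb by 0.30 ± 0.14, while the mean of Trib3 was lower in cafeteria samples on each of its probe sets. Dropping cafeteria replicate 2 left Ddit3 at 0.10, dropping cafeteria replicate 1 put it at 0.45, and Cebpb by 0.19 without standard replicate 1 and 0.20 without cafeteria replicate 1. Of 6 insulin-induced transcripts, lipoprotein lipase (Lpl) differed by 0.30 ± 0.09, and fatty acid synthase (Fasn) by -0.25 ± 0.21, with 5 of the 6 at a lower mean. The brighter Fasn probe set, used here, ranged between -0.42 without standard replicate 1 and -0.11 without cafeteria replicate 1. The dimmer one differed by -0.47 with all arrays. The insulin gene Ins1 read 5.61 and 5.33 on the cafeteria arrays and 5.11, 5.38 and 5.38 on the standard arrays, with overlap, and differed by 0.04 without cafeteria replicate 1 and 0.32 without cafeteria replicate 2.

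**Figure D4:**
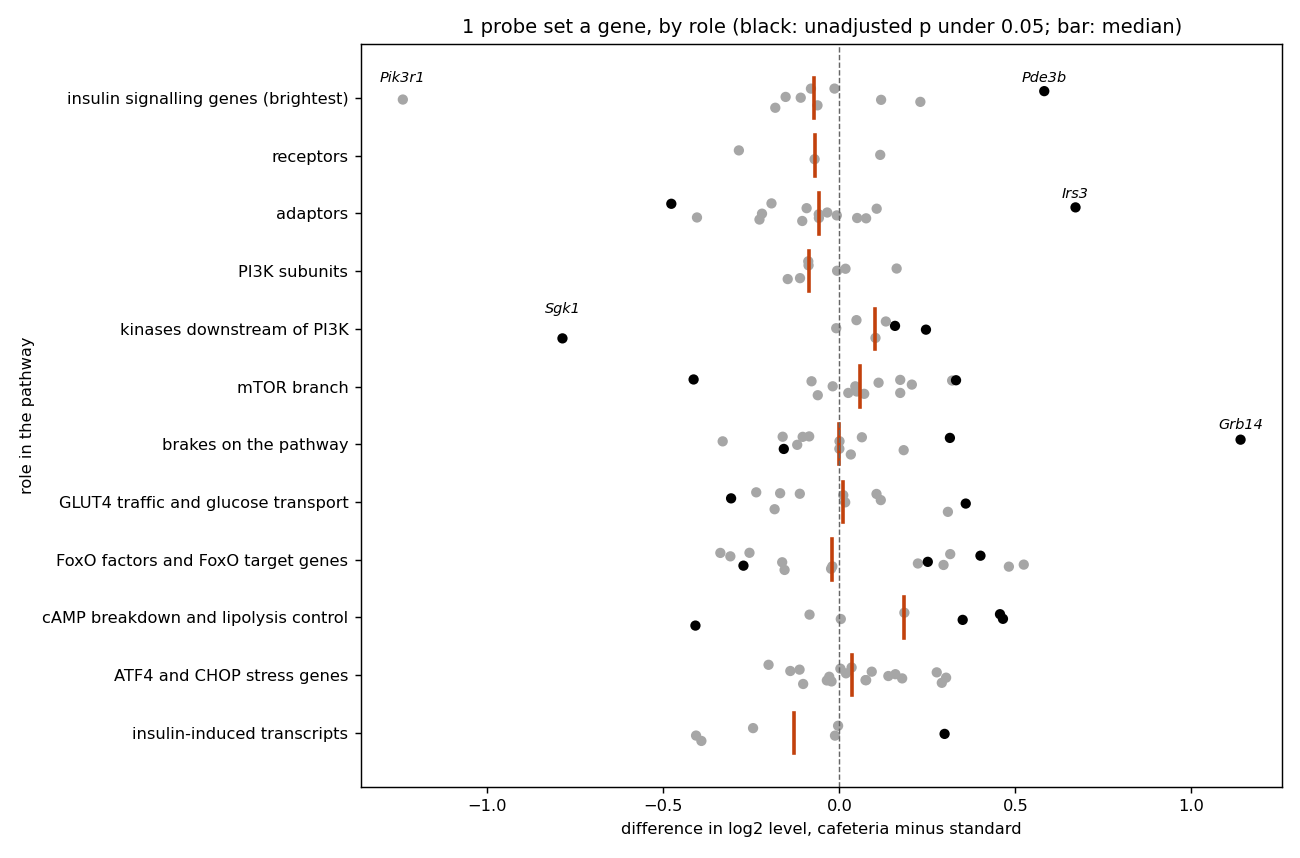
Difference in log2 level, cafeteria minus standard (horizontal axis), for the 10 insulin signalling genes and for 117 other pathway genes by role (vertical axis), with 1 probe set a gene. Each point is a gene, black at an unadjusted p under 0.05, and each bar the median of its role. Medians of all roles lie between -0.13 and 0.18, while Grb14 at 1.14 and Pik3r1 at -1.24 lie farthest from 0.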

How the data were processed

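The deposited table holds log2 expression levels, 1 per probe set and array, and per the submitters' processing notes RMA and the affy package were used, without versions or further steps. RMA makes array distributions alike, which can hide a shift of most transcripts, and its summaries can repeat a value between arrays. No source used here gives array batches. Titles gave the diet of each of the 5 arrays, whose number limits the precision.

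GEO's platform annotation gave 1 symbol to 20832 probe sets, several to 436 and none to 9780. The RefSeq gene table held 20764 of those with 1 symbol and changed 0. From the values, 57 control probe sets were dropped and the 21729 whose mean over all arrays exceeded the 30th percentile, 4.28, were fitted in limma 3.58.1 (R 4.3.3, lmFit then eBayes, 3 residual degrees of freedom, a prior worth 1.50), two-sided, with Benjamini-Hochberg adjustment at 0.05 over all of them. The probe set below the filter was fitted without it. Intervals are 95% intervals of the moderated fit. Exact permutation tests used the 10 splits of 5 arrays. Python 3.11.15 and matplotlib 3.10.9 made the figures. The fit was tested on simulated arrays.

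The named genes were every member probe set, the 2 genes with the smallest p in each role, Slc2a4, Ins1, Ins2, acinar genes of widest range, and the 3 genes closest in profile to the member with the smallest p. Single B cell markers and the Pde4 genes were named after their values were seen. Members and lists were chosen with earlier results of these data known. Marker means cover all listed genes on the array, 1 probe set each. Alternatives were other filters, normalizations and variance models, array weights, a replicate block, an acinar covariate, another probe set per gene and leaving out each array. For single named pathway genes they were added after the data were seen.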

Additional observations from a re-analysis of the deposited data

How the results depend on the processing

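In limma no setting tried called any probe set of the array, members included, with 1874 to 4171 at an unadjusted p under 0.05. The count of member probe sets at an unadjusted p under 0.05 was 1, against 0 without moderated variance, 0 with the acinar covariate, 2 with array weights, 2 with the replicate block, and 0 to 3 when 1 array was left out. The probe sets counted changed: 2 of Akt2 and that of Pik3r1 without cafeteria replicate 1, the dim one of Akt2 without cafeteria replicate 2, another of Akt2 without standard replicate 2, Pde3b and the brighter one of Tbc1d4 without standard replicate 3, and 0 without standard replicate 1. A fit without 1 cafeteria array takes its spread from the standard arrays alone. The count over other pathway genes was 20, against 12 without moderated variance and 11 to 23 when 1 array was left out, the 11 without standard replicate 2. The median member difference of -0.04 was -0.0138 with no filter, -0.0621 with the 50th percentile filter, 0.0089 with the replicate block, -0.0111 with the acinar covariate, and -0.0343 to 0.0089 when 1 array was left out, so its sign is not settled.

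The replicate block, which takes same-numbered samples as pairs and leaves standard replicate 3 without a partner, turned the sign of the brighter Insr probe set (0.0620), Irs2 (0.0273), the second Akt1 probe set (-0.0196) and the dimmer Trib3 probe sets (0.0122 and 0.1022). Nothing in the labels pairs the numbers, and deviations from the group means correlated at 0.079 for the samples numbered 1 and -0.0365 for those numbered 2. The acinar covariate turned the dimmer Insr probe set (0.0443). Leaving out 1 array gave ranges that cross 0 for Insr (-0.26 to 0.0620 and -0.22 to 0.0641), Irs2 (-0.15 to 0.0273), Akt1 (-0.0196 to 0.0605), the dim Akt2 probe set (-0.20 to 0.18), Trib3 (-0.23 to 0.0122 and -0.29 to 0.10) and Slc2a4 (-0.47 to 0.0005). Over members and named pathway genes, 425 of 431 differences under the 10 other settings and 210 of 220 with 1 array left out kept their sign. Settings that change only the filter or the variance model leave each difference as it is, so no sign could turn under those. The reversals among the 431 came from the replicate block and the acinar covariate. The cause of these shifts was not tested.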
